A study of Mus musculus with 20 samples.

Results

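Lymphocyte marker genes were examined in mouse liver after IL-1β, by 9 transcripts that mark the main lymphocyte classes. The members were the table rows whose gene symbol was Cd3e, Cd3g, Cd8a, Cd4, Nkg7, Gzma, Gzmb, Cd79a or Ms4a1, so 9 of the 37681 genes listed. All 9 were present in each of the 6 tables. Liver RNA came from 10 wild-type male C57/BL6 mice (C57/B6J in the methods of the study) aged 12 weeks, of which 5 (ILB) received IL-1β at 20 µg/kg by intraperitoneal injection and 5 (UNT, untreated) received saline, and tissue was collected after 4 hours. RNA of each mouse was made into 1 Illumina HiSeq library and 1 Ion Torrent Proton library, and each of these was aligned with GSNAP, with STAR, and with STAR followed by Bowtie2 (STAR + Bowtie2), which gave 6 tables of 10 libraries. The 3 tables of a platform therefore hold the same sequenced reads and are not replicates of each other, whereas the 2 platforms are separate libraries from the same RNA. The material was whole liver with no sort of immune cells, so a lower count of a marker can come from fewer cells of a type or from less RNA per cell, and these cannot be told apart here.

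IL-1β is a cytokine of the acute inflammatory response, and in the liver it acts on hepatocytes, endothelium and resident macrophages. The liver also holds lymphocytes in its sinusoids, among them T cells, natural killer (NK) cells and B cells, together with those of the blood left in the organ. Cd3e and Cd3g encode chains of the CD3 complex that carries the T cell receptor signal. Cd4 and Cd8a encode the co-receptors for class II and class I MHC, and in the mouse Cd4 is also made by some dendritic cells. Nkg7 encodes a granule membrane protein, and Gzma and Gzmb encode granule proteases (granzymes), of NK cells and cytotoxic T cells. Cd79a encodes a signalling chain of the B cell receptor, and Ms4a1 encodes the B cell surface protein CD20.

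In GENCODE gene models on mm9, the genome build of the tables, the 9 members were protein-coding genes on 6 chromosomes. No exon of theirs overlapped an exon of another gene there. The exon lengths used below come from the same models, whereas the study made its counts with Ensembl gene models. Cd3g (chr9:44777655-44788514) and Cd3e (chr9:44806826-44817673) lay near each other on the minus strand of chromosome 9. Cd8a (chr6:71323421-71329165, plus strand) and Cd4 (chr6:124814710-124838239, minus strand) were on chromosome 6. Cd79a (chr7:25682400-25687216) and Nkg7 (chr7:50692443-50693616) were on the plus strand of chromosome 7. Gzma (chr13:113884033-113891187), Gzmb (chr14:56877693-56881097) and Ms4a1 (chr19:11324654-11340669) were on the minus strand of chromosomes 13, 14 and 19. The counts of a member cover all its exons, with no split by isoform.

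The bases just before the start of a gene are shown for 2 members whose calls differed in direction, Cd79a and Gzma. Cd79a passed as lower in the 3 Illumina tables, and Gzma as higher in 1 table alone, Ion Torrent STAR. They come from RefSeq on GRCm38.p6, a later build than that of the tables, and 7 of the 9 members had an entry (not Cd4 and Ms4a1). Each run is the 250 bases before the start, 5′ to 3′ on the gene's strand, at chr7:24897247-24897496 (plus strand) for Cd79a and chr13:113100982-113101231 (minus strand) for Gzma. Capitals mark matches to CANNTG (the E-box, the site of basic helix-loop-helix factors) and to AGGAAG (a core of ETS family sites), read on both strands.
Cd79a: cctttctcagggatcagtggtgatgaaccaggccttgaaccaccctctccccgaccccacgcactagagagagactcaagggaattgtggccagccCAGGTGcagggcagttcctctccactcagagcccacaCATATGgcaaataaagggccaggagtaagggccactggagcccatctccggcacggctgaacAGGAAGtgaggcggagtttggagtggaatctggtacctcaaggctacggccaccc
Gzma: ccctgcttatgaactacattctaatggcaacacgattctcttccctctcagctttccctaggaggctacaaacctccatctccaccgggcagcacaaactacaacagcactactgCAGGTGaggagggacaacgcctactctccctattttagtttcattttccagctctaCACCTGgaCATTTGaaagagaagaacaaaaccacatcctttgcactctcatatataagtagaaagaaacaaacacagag
The Cd79a window held 2 matches to CANNTG and 1 to AGGAAG, and the Gzma window held 3 and 0. CANNTG was found in the windows of all 7 members with an entry and in 66.2% of the 32851 promoter windows of the same length. AGGAAG was found for Cd79a, Nkg7 and Cd3e and in 29.5% of all windows. Another motif searched on both strands, CCCNNGGG (paired half-sites of EBF factors), was found for 0 of the 7 and in 11.8% of all windows. Such matches are common, and none of these data measured binding.

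The 9 transcripts were rare in this tissue. Together they received 10 to 66 counts per library in the Illumina tables, of library totals of 10568530 to 12008799, and 26 to 81 in the Ion Torrent tables, of totals of 12199528 to 16439683. The study took a gene as detected with at least 5 counts in 5 of the 10 libraries of a table, and 15578 genes met this in at least 1 table. Of the members, 5 did (Cd3g, Cd4, Nkg7, Gzma and Cd79a), and only Cd4 did so in all 6 tables. Since a gene can pass through its higher group alone, and since 4 members never passed, all 9 were kept in the fit, which held 15582 genes. Counting error alone is large at these depths: a group in which a gene had 0 counts in all could hold up to 3 at the 95% level. The 2 libraries of a mouse were compared on genes averaging at least 20 counts on both platforms, a level no member reached. The counts of these genes deviated together from their treatment means, with a correlation across genes of 0.562 to 0.728 for 9 mice. The remaining mouse, UNT_9584, stood apart with 0.199 to 0.249, so calls on the members are also given without it. The study likewise reports a lower correlation between platforms for this mouse, and shifted read lengths in its Ion Torrent library.

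**Figure D1:**
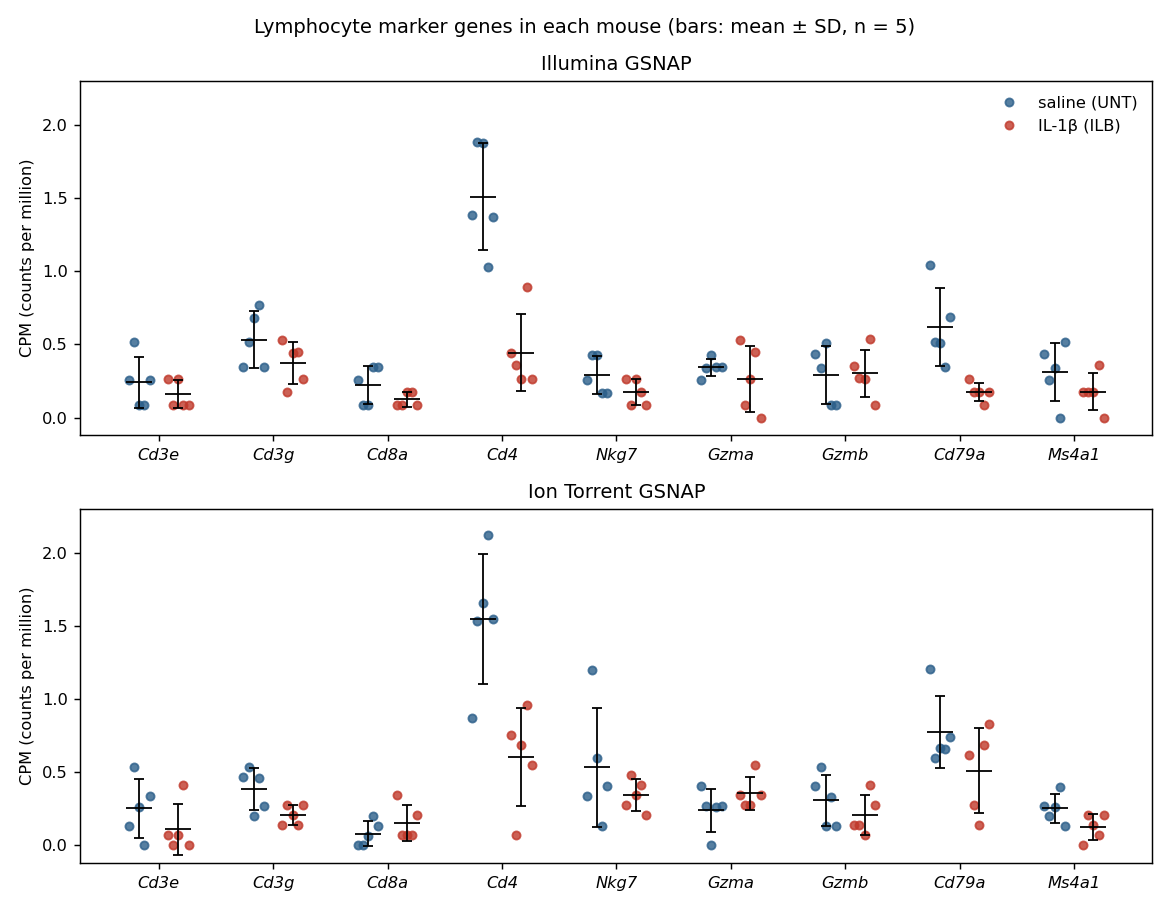
CPM (y axis) of the 9 lymphocyte marker genes (x axis) in the Illumina GSNAP table (top) and the Ion Torrent GSNAP table (bottom), with 1 point per mouse and bars at the mean ± SD of 5 mice. Cd4 has the highest mean CPM of the untreated mice in both panels and a lower mean after IL-1β, with groups that are apart in the Illumina panel and overlap in the Ion Torrent panel.

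Among the untreated mice the members were ordered by counts divided by exon length (RPKM, counts scaled to exon length and to the library total). In Illumina GSNAP, Cd3g had the highest level at 0.497 ± 0.181 RPKM (SD, n = 5), followed by Cd79a at 0.425 ± 0.182 and Cd4 at 0.374 ± 0.0910. Gzma at 0.365 ± 0.0626 RPKM and Nkg7 at 0.332 ± 0.147 came next. Gzmb was at 0.206 ± 0.139 RPKM, Cd3e at 0.167 ± 0.122, Ms4a1 at 0.123 ± 0.0785 and Cd8a, the lowest, at 0.0714 ± 0.0417. In Ion Torrent GSNAP, Nkg7 had the highest level at 0.607 ± 0.463 RPKM, Cd79a again followed at 0.531 ± 0.170, Cd4 came next at 0.383 ± 0.110, and Ms4a1 and Cd8a again the lowest at 0.100 ± 0.0386 and 0.0255 ± 0.0277. No 2 neighbours in the order differed beyond their spread, because the ranges over the untreated mice overlapped for every neighbouring pair in all 6 tables. After IL-1β, Cd4 stood at 0.110 ± 0.0646 RPKM in Illumina GSNAP, where its place went from 3 to 7, and at 0.150 ± 0.0828 in Ion Torrent GSNAP, where it went from 3 to 5.

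The main comparison asked which members differed between IL-1β and untreated livers within a table. Cd4 fell in all 6 tables, to between 0.265 and 0.391 of the untreated CPM (counts scaled to the library total). Cd79a fell in the 3 Illumina tables and did not pass the test in the 3 Ion Torrent tables. Gzma rose in 1 table, Ion Torrent STAR, and Cd3e, Cd3g, Cd8a, Nkg7, Gzmb and Ms4a1 passed the test in no table. By edgeR's quasi-likelihood test with Benjamini-Hochberg adjustment over the 15582 genes, 2 members passed in each Illumina table, 1 in Ion Torrent GSNAP, 2 in Ion Torrent STAR and 1 in Ion Torrent STAR + Bowtie2. Changed genes were common in this liver: 47.5%, 45.7% and 47.2% of all genes passed in Illumina GSNAP, STAR and STAR + Bowtie2, and 46.5%, 42.1% and 46.7% in the same order on Ion Torrent. Genes that passed as lower were 23.9%, 22.9% and 23.9% of all on Illumina and 24.0%, 21.8% and 24.0% on Ion Torrent, and 20.3% passed as higher in Ion Torrent STAR. Among genes with a mean count in the range of the members, 25.9%, 23.1% and 21.1% passed on Illumina and 22.6%, 22.0% and 24.6% on Ion Torrent. The 1 or 2 of 9 members called per table were thus near the share called among all genes of like counts. With the test of the study's methods (rank-sum test, q below 0.05, detected genes only), 2, 2 and 2 of the 5 detected members passed on Illumina and 0, 2 and 1 on Ion Torrent, beside 41.0%, 39.6%, 40.1%, 38.8%, 37.2% and 38.8% of all genes that could be tested. In Ion Torrent GSNAP, where that test called 0 members, 1 member had an unadjusted p under 0.05, and edgeR called 1.

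**Figure D2:**
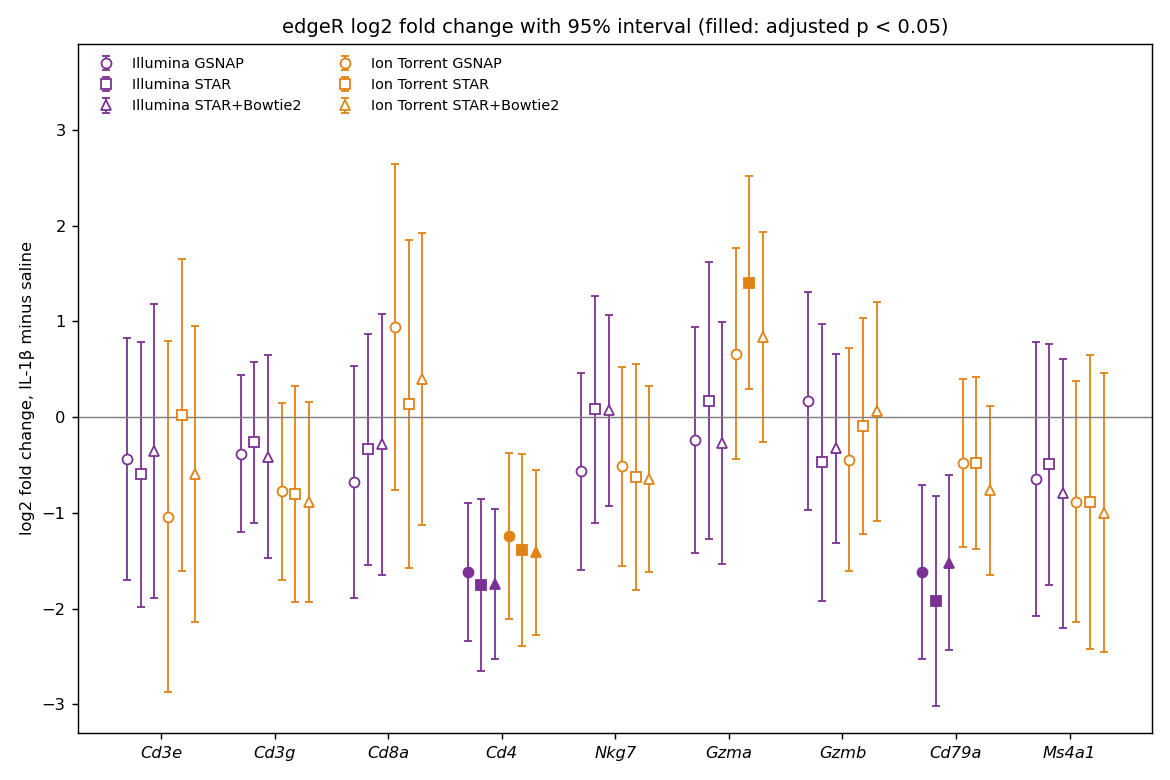
edgeR log2 fold change, IL-1β minus saline (y axis), with its 95% interval for the 9 members (x axis) in the 6 tables, Illumina in purple and Ion Torrent in orange, filled where the adjusted p was below 0.05. Cd4 is filled in all 6 tables at -1.76 to -1.25, Cd79a in the 3 Illumina tables, and Gzma in Ion Torrent STAR alone.

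Of the T cell members, Cd4 had the most counts. In Illumina GSNAP the treated mice ILB_9577, ILB_9578, ILB_9579, ILB_9582 and ILB_9583 had 5, 4, 3, 10 and 3 Cd4 counts, and the untreated mice UNT_9574, UNT_9575, UNT_9576, UNT_9580 and UNT_9584 had 16, 22, 22, 12 and 16. The groups did not overlap, and ILB_9582 was the highest of the treated mice. In Ion Torrent GSNAP the treated mice had 11, 1, 10, 14 and 8 Cd4 counts in the same order, and the untreated mice 13, 23, 25, 32 and 23. Here the highest treated mouse, ILB_9582 with 14, lay above the lowest untreated mouse, UNT_9574 with 13. The Cd4 counts of the 2 groups were apart in all 3 Illumina tables (1 to 10 against 10 to 22 over the tables, with no overlap within a table), and in the Ion Torrent tables they met or overlapped. Over all detected genes, groups with lower counts after IL-1β and no overlap made up 22.4%, 21.4% and 21.8% on Illumina.

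The log2 fold change of Cd4 was -1.62 (SE 0.34, edgeR adjusted p = 0.00114) in Illumina GSNAP, and -1.25 (SE 0.41, adjusted p = 0.0200) in Ion Torrent GSNAP. Over the 6 tables it lay between -1.76 and -1.25, with adjusted p-values of 0.00114 to 0.0255. Summed over mice, Illumina GSNAP held 25 Cd4 counts after IL-1β and 88 in the untreated mice, a ratio of CPM of 0.294 (95% interval 0.181 to 0.463, counting error only), and Ion Torrent GSNAP held 44 and 116, a ratio of 0.391 (0.270 to 0.557). The exact permutation test over mice gave p = 0.00794 in each Illumina table, the smallest value that 5 against 5 mice allow (two-sided), and p = 0.0159 in each Ion Torrent table. Without UNT_9584 the Cd4 log2 fold changes in Ion Torrent GSNAP, STAR and STAR + Bowtie2 were -1.23, -1.37 and -1.34 (edgeR adjusted p = 0.0342, 0.0439 and 0.0232). The call was lost in Ion Torrent GSNAP without UNT_9580 (log2 fold change -1.08, edgeR adjusted p = 0.0545), the untreated mouse with the most Cd4 counts, and in Ion Torrent STAR without UNT_9580 or ILB_9583 (edgeR adjusted p up to 0.0760). It was kept in every other refit of edgeR that left out 1 mouse. In Ion Torrent STAR limma-voom also gave no call (adjusted p = 0.0570).

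The remaining T cell members had few counts and passed in no table. Cd3g held 2 to 6 counts per treated mouse and 4 to 9 per untreated mouse in Illumina GSNAP, and 2 to 4 and 3 to 8 in Ion Torrent GSNAP, so the groups overlapped on both platforms. Its log2 fold change was below 0 in all 6 tables (-0.89 to -0.26, edgeR adjusted p = 0.154 to 0.649). Cd3e had 1 to 3 counts per treated mouse and 1 to 6 per untreated mouse in Illumina GSNAP, and 0 to 6 and 0 to 8 in Ion Torrent GSNAP. Its log2 fold changes lay between -1.04 and 0.02 over the tables. Cd8a had 1 to 2 and 1 to 4 counts per mouse in Illumina GSNAP and 1 to 5 and 0 to 3 in Ion Torrent GSNAP, with log2 fold changes from -0.68 to 0.94. The 95% intervals of Cd3e (-1.70 to 0.82) and Cd8a (-1.89 to 0.53) in Illumina GSNAP held both 0 and the -1.62 of Cd4, so neither value was excluded for them.

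Of the B cell members, Cd79a had the clearest difference on Illumina. In Illumina GSNAP the treated mice had 3, 2, 2, 1 and 2 Cd79a counts (ILB_9577, ILB_9578, ILB_9579, ILB_9582 and ILB_9583) and the untreated mice had 12, 6, 6, 4 and 8 (UNT_9574, UNT_9575, UNT_9576, UNT_9580 and UNT_9584). No treated mouse reached the lowest untreated mouse, and in Illumina STAR the groups were also apart (0 to 2 and 3 to 10). With Illumina STAR + Bowtie2 they met at 4 (1 to 4 and 4 to 14). In Ion Torrent GSNAP the treated mice had 9, 4, 2, 10 and 12 counts and the untreated mice 18, 9, 10, 10 and 11, so the groups overlapped and only ILB_9578 and ILB_9579 lay below every untreated mouse. The log2 fold change of Cd79a was -1.62 (SE 0.42, edgeR adjusted p = 0.00561) in Illumina GSNAP, -1.92 (SE 0.51, adjusted p = 0.00637) in Illumina STAR and -1.52 (SE 0.43, adjusted p = 0.00861) in Illumina STAR + Bowtie2. It was -0.48 (SE 0.41), -0.48 (SE 0.43) and -0.76 (SE 0.41) in the Ion Torrent tables, with edgeR adjusted p-values of 0.363, 0.398 and 0.146. The 95% interval in Ion Torrent GSNAP, -1.36 to 0.39, held 0 and most sizes of decrease short of the Illumina value. The exact permutation test over mice gave p = 0.00794 in Illumina GSNAP and STAR and p = 0.0159 in Illumina STAR + Bowtie2, and p = 0.214, 0.167 and 0.0317 in Ion Torrent GSNAP, STAR and STAR + Bowtie2. Each Illumina call was kept when any 1 mouse was left out.

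**Figure D3:**
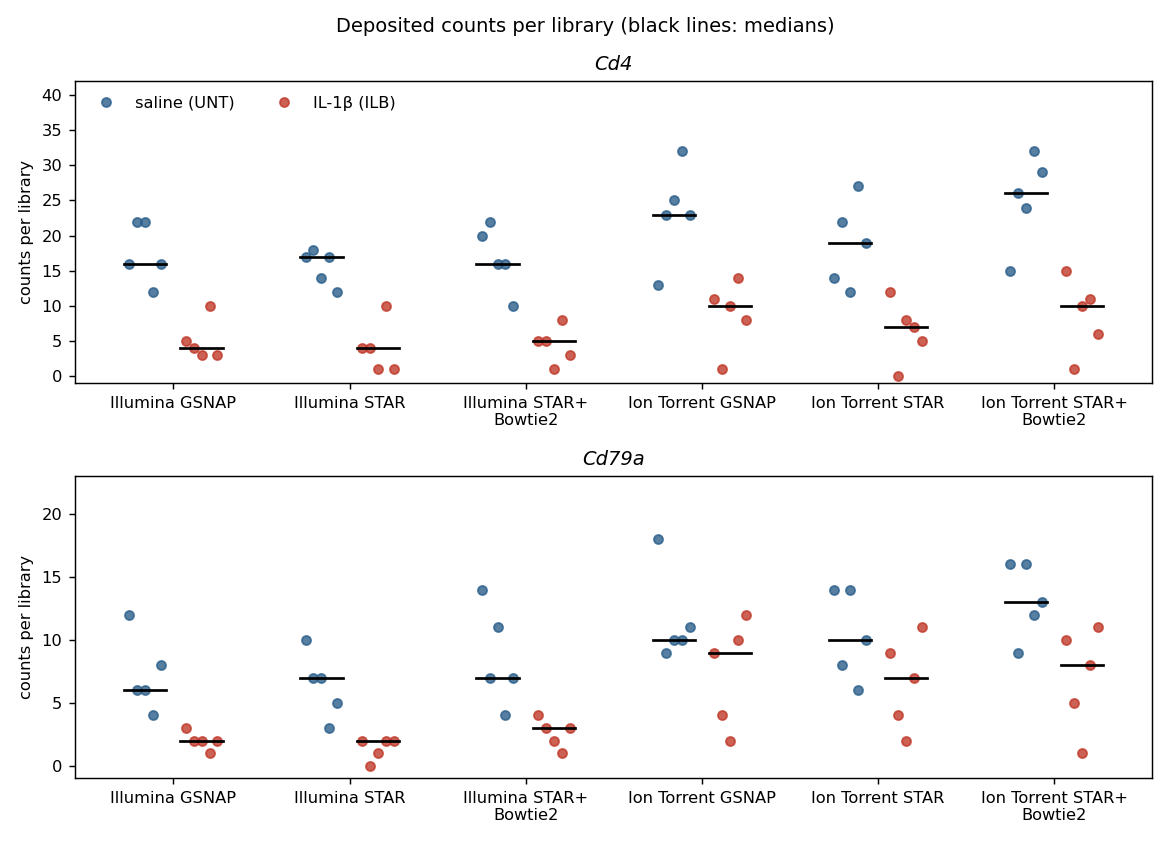
Deposited counts per library (y axis) of Cd4 (top) and Cd79a (bottom) in the 6 tables (x axis), with 1 point per mouse and a black line at the median of 5 mice. The Cd4 medians of the treated mice lie below those of the untreated mice in all 6 tables. The Cd79a points overlap in the 3 Ion Torrent tables and meet at 4 counts in Illumina STAR + Bowtie2.

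A call on Illumina and none on Ion Torrent does not by itself show a platform difference, so the difference between the 2 log2 fold changes was tested in one edgeR model per aligner, which held both platforms (20 libraries) and blocked on the mouse. For Cd79a the Ion Torrent log2 fold change was higher than the Illumina one by 1.11 (SE 0.58, edgeR adjusted p = 0.649) with GSNAP, by 1.46 (SE 0.66, adjusted p = 0.695) with STAR and by 0.74 (SE 0.56, adjusted p = 0.735) with STAR + Bowtie2. A platform difference was thus not established for Cd79a, and its absence was not shown either. For Cd4 the differences were 0.39, 0.41 and 0.34 (edgeR adjusted p = 0.856 to 0.921). The term called 0 members with each aligner, and members with an unadjusted p under 0.05 numbered 0, 1 and 0 (the 1 being Cd79a with STAR). Of all genes, 0.0642%, 0.00642% and 0.0770% were called.

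Ms4a1, the second B cell member, held 0 to 4 counts per treated mouse and 0 to 6 per untreated mouse in Illumina GSNAP, and 0 to 3 and 2 to 6 in Ion Torrent GSNAP. The groups overlapped on both platforms. Its log2 fold change was below 0 in all 6 tables, between -0.998 and -0.49, with edgeR adjusted p-values of 0.239 to 0.542.

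No cytotoxic member passed as lower in any table. Gzma had 6, 1, 3, 5 and 0 counts in the treated mice and 3, 4, 5, 4 and 4 in the untreated mice of Illumina GSNAP, a wider spread with IL-1β around a similar median. In Ion Torrent STAR, the single table where it passed, the treated mice had 4, 7, 5, 5 and 6 Gzma counts and the untreated mice 4, 2, 0, 2 and 3, a log2 fold change of 1.41 (SE 0.53, edgeR adjusted p = 0.0410). The summed counts, 27 and 11, gave a ratio of 2.53 (1.21 to 5.65). In Illumina STAR the same mice gave 16 counts in each group. The Ion Torrent STAR call was lost with DESeq2, with total counts in place of TMM, without the filter on low counts and in 7 of 10 refits that left out 1 mouse (without ILB_9578, ILB_9579, ILB_9582, ILB_9583, UNT_9575, UNT_9576 or UNT_9580, edgeR adjusted p up to 0.0820). It was kept without UNT_9584 (log2 fold change 1.55, edgeR adjusted p = 0.0493). Over the 6 tables the Gzma log2 fold change ran from -0.27 to 1.41.

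Nkg7 had 1 to 3 counts per treated mouse and 2 to 5 per untreated mouse in Illumina GSNAP, and 3 to 7 and 2 to 18 in Ion Torrent GSNAP, where the untreated mouse UNT_9575 had the 18. Its log2 fold changes lay between -0.65 and 0.08 (edgeR adjusted p = 0.263 to 0.953). Gzmb had 1 to 6 counts per mouse in both groups of Illumina GSNAP, and 1 to 6 against 2 to 8 in Ion Torrent GSNAP. Its log2 fold changes lay between -0.47 and 0.17 (edgeR adjusted p = 0.537 to 0.95), and its 95% intervals reached from -1.92 to 1.31.

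Because single tables held so few counts, the 2 libraries of each mouse were also summed, a choice made after the counts had been seen. With GSNAP, the treated mice then had 16, 5, 13, 24 and 11 Cd4 counts and the untreated mice 29 to 47, with no overlap, and the ratio of CPM was 0.349 (0.262 to 0.461). Ms4a1 had 2 to 5 counts per treated mouse and 6 to 9 per untreated mouse, also with no overlap, and a ratio of 0.530 (0.288 to 0.946). That gap for Ms4a1 was seen with GSNAP alone: the STAR sums were 2 to 4 and 3 to 8, and the STAR + Bowtie2 sums met at 5 (2 to 5 and 5 to 8). The Cd4 sums were apart with all 3 aligners, and those of Cd79a with STAR + Bowtie2 (3 to 14 and 16 to 30). With GSNAP, Cd79a had 4 to 14 and 14 to 30 counts per mouse (ratio 0.516, 0.356 to 0.740), and Cd3g 6 to 8 and 8 to 16 (ratio 0.619, 0.398 to 0.952), so that each pair of groups met at 1 value. These ratios scale counts to library totals and were not made with TMM for the sums. Scaling to totals makes more genes lower: 55.9% of genes with a count in Illumina GSNAP, where TMM gave 50.7%. The upper limits of Ms4a1 and Cd3g lie close enough to 1 for this to matter. Groups with lower counts after IL-1β and no overlap made up 26.6% of all detected genes in the GSNAP sums. That share is not given for the STAR and STAR + Bowtie2 sums.

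The exact permutation test over mice gave p = 0.00794 for Cd4 and for Ms4a1, p = 0.0159 for Cd79a and p = 0.0238 for Cd3g in the GSNAP sums. In the STAR sums the exact permutation p was 0.0317 for Ms4a1, 0.0476 for Cd79a and 0.0635 for Cd3g, and in the STAR + Bowtie2 sums 0.0159, 0.00794 and 0.0238. For Cd3e, Cd8a, Nkg7, Gzma and Gzmb the GSNAP sums gave p = 0.230, 1, 0.317, 0.667 and 0.548 (exact permutation, 9 tests per aligner, unadjusted). Gzma had an exact permutation p of 0.0159 in the STAR sums, with 43 counts after IL-1β and 27 in the untreated mice. In the STAR + Bowtie2 sums its exact permutation p was 0.635. Fitted across all genes by edgeR, the GSNAP sums called Cd4 (log2 fold change -1.40, SE 0.31, adjusted p = 0.00167). Cd79a at -0.83 (edgeR adjusted p = 0.0547), Ms4a1 at -0.78 (adjusted p = 0.0765) and Cd3g at -0.57 (adjusted p = 0.0952) did not pass. In the STAR sums Cd4 (-1.53) and Gzma (0.84, edgeR adjusted p = 0.0299) passed, and in the STAR + Bowtie2 sums Cd4 (-1.55) and Cd79a (-1.03, edgeR adjusted p = 0.0190). The Gzma call was kept in 4 of 10 refits without 1 mouse (without ILB_9578, ILB_9583, UNT_9574 or UNT_9575) and lost in the others (edgeR adjusted p up to 0.0767), among them the refit without UNT_9584 (edgeR adjusted p = 0.0715), and the Cd79a call in 9, being lost without UNT_9574 (edgeR adjusted p = 0.0522). In the GSNAP sums Cd79a was called only without ILB_9583 (edgeR adjusted p = 0.0289). Only Cd4 was called with all 3 aligners, where 53.1%, 49.8% and 53.1% of all genes and 29.8%, 30.9% and 31.8% of genes in the members' range of mean counts were called. The Cd4 call was kept in each of the 10 refits without 1 mouse, with each aligner.

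**Figure D4:**
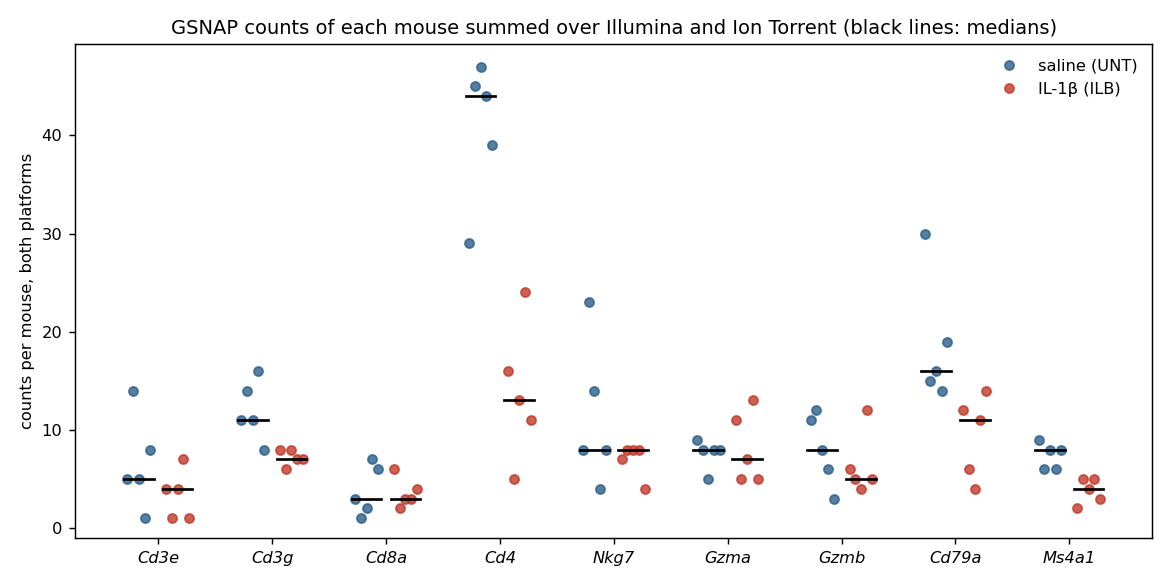
GSNAP counts per mouse summed over its Illumina and Ion Torrent libraries (y axis) for the 9 members (x axis), with 1 point per mouse and a black line at the median of 5 mice. The groups do not overlap for Cd4 (5 to 24 against 29 to 47) and Ms4a1 (2 to 5 against 6 to 9), and they overlap for Cd3e, Cd8a, Nkg7, Gzma and Gzmb. With STAR and with STAR + Bowtie2, not plotted, the Ms4a1 groups overlap or meet.

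Taken by class, the T cell members summed to 140 counts after IL-1β and 316 in the untreated mice over both GSNAP tables, a ratio of CPM of 0.457 (0.372 to 0.560, counting error only). The B cell members summed to 66 and 131, a ratio of 0.520 (0.381 to 0.704), and the cytotoxic members to 108 and 135, a ratio of 0.826 (0.635 to 1.07). Cd4 supplied 69 of the 140 and 204 of the 316 T cell counts. Per mouse, the T cell sums were 14 to 41 after IL-1β and 48 to 74 in the untreated mice, the B cell sums 8 to 17 and 20 to 39, and the cytotoxic sums 14 to 33 and 18 to 43, so that only the cytotoxic sums overlapped with GSNAP. With STAR the B cell sums also overlapped (7 to 16 and 14 to 29), and with STAR + Bowtie2 they did not (7 to 16 and 21 to 38). Of the T cell members Cd4 alone was apart with GSNAP. Cd3e (1 to 7 and 1 to 14) and Cd8a (2 to 6 and 1 to 7) overlapped, and Cd3g met at 8. A T cell sum without Cd4 was not made. Single genes with such a gap, lower after IL-1β, were 26.6% of detected genes with GSNAP, and no share was taken for sums of genes. The median log2 fold change of the 9 members lay between -0.65 and -0.35 over the 6 tables, where that of all genes was between -0.00277 and 0. Between 6 and 8 members had a log2 fold change below 0 in a table, beside 48.5% to 50.2% of all genes. Among genes with a mean count in the range of the members the share was larger. Of those, 52.6% to 57.4% had lower summed counts after IL-1β when scaled by TMM.

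Other genes of the same cell types were read from lists, and the counts of calls are given for the 2 GSNAP tables. Of 22 T cell genes beside the members, 9 were detected, and 3 fell in Illumina GSNAP and 2 in Ion Torrent GSNAP, with none higher (median log2 fold change -0.19 and -0.74). The counts of the 22 genes summed to 6.47 to 8.43 CPM per treated mouse and 10.2 to 14.7 per untreated mouse of Illumina GSNAP, and to 7.63 to 10.4 and 12.1 to 19.3 in Ion Torrent GSNAP, with no overlap on either platform. Zap70 and Tcf7 supplied 197 of the 418 treated and 443 of the 733 untreated counts of that sum in Illumina GSNAP. Without both, a split made after the values were seen, the other 20 genes summed to 2.75 to 4.88 and 3.95 to 6.17 CPM in Illumina GSNAP and to 3.56 to 4.26 and 4.04 to 6.92 in Ion Torrent GSNAP, and the ranges overlapped on both platforms. Zap70, the kinase that reads out the T cell receptor and also works in NK cells, fell in all 6 tables (from 210 to 86 counts in Illumina GSNAP, log2 fold change -1.11, SE 0.21). Tcf7, a transcription factor of naive and memory T cells, also fell in all 6 (from 233 to 111 counts, -0.89, SE 0.19). Lck, the kinase next to the CD4 and CD8 co-receptors, and Il7r, the interleukin 7 receptor chain, were called in no table (log2 fold changes -0.19 to 0.49 for Lck and 0.13 to 0.68 for Il7r). Trbc2, a constant segment of the T cell receptor beta chain, which was picked after its values were seen, had 5 counts after IL-1β and 26 in the untreated mice of Illumina GSNAP (log2 fold change -2.08) and 15 against 29 in Ion Torrent GSNAP, where it did not pass. Of all genes, 23.9% and 24.0% fell and 23.7% and 22.5% rose in the 2 GSNAP tables.

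Of 22 B cell genes, 13 were detected, and 6 fell and none rose in either GSNAP table (median log2 fold change -0.64 and -0.94). The 22 genes summed to 10.1 to 17.3 CPM per treated mouse and 18.8 to 28.9 per untreated mouse of Illumina GSNAP, and to 9.04 to 22.1 and 17.1 to 32.6, which overlap, in Ion Torrent GSNAP. Blnk, the adaptor below the B cell receptor, fell in both (log2 fold change -1.46, SE 0.33, in Illumina GSNAP and -1.06, SE 0.34, in Ion Torrent GSNAP), as did Cd72, an inhibitory co-receptor (-1.15, SE 0.31, and -1.06, SE 0.32). Blnk did not pass in the other 2 Ion Torrent tables, nor Cd72 in Illumina STAR. Cd79b, the partner chain of Cd79a (-1.66 and -1.22), and the inhibitory receptor gene Cd22 (-1.01 and -0.94), both named after their values were seen, also fell in both. In Illumina STAR only 2 of the 13 fell (Blnk and Bank1) and 1 rose (Spib), whereas 5 or 6 fell in each of the other tables. Ighm, the immunoglobulin mu chain gene, and Cd37, a tetraspanin gene of B cells and other leukocytes, were called in no table (log2 fold changes -0.66 to -0.32 and -0.13 to 0.42).

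Of 21 NK and cytotoxic genes, 5 were detected, and 1 rose and 1 fell in Illumina GSNAP, and 1 rose in Ion Torrent GSNAP (median log2 fold change 0.14 and 0.26). The 21 genes summed to 10.6 to 14.9 CPM per treated mouse and 9.87 to 14.7 per untreated mouse of Illumina GSNAP, so the ranges overlapped almost in full. In Ion Torrent GSNAP they summed to 7.72 to 13.1 and 8.34 to 10.7 CPM, which also overlap. Serpinb9 had the most counts of the list, on average 81.9 per library in Illumina GSNAP, so it weighs heavily in that sum. The sum without Serpinb9 was not made. Serpinb9, an inhibitor of granzyme B, and Il2rb, a chain of the interleukin 2 and 15 receptors, were called in no table (-0.25 to 0.18 and -0.18 to 0.15). Il18rap, a subunit of the interleukin 18 receptor that neutrophils also make, rose in all 6 tables, with 77 counts after IL-1β and 18 in the untreated mice of Illumina GSNAP (log2 fold change 2.23). Gzmk was at 0 counts in all 6 tables.

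Of 19 lymphocyte activation genes, 9 were detected, and 4 rose and 1 fell in Illumina GSNAP and 4 rose in Ion Torrent GSNAP (median log2 fold change 0.92 and 0.99). The 4 that rose in all 6 tables were Il12rb1, a chain of the interleukin 12 receptor (0.92, SE 0.22, in Illumina GSNAP), Il18r1, the other interleukin 18 receptor subunit (1.94), Tnfrsf9, a co-stimulatory receptor gene (3.34 in Ion Torrent GSNAP, from 8 to 78 counts), and Egr2, an early response transcription factor gene (2.33 in Ion Torrent GSNAP, from 5 to 25 counts). Icos, a co-stimulatory receptor gene of T cells, fell in the 3 Illumina tables (-2.14 in Illumina GSNAP, from 47 to 9 counts) and did not pass in the Ion Torrent tables (-1.80 to -1.15). All but Il12rb1 of these were named after their values were seen. Nr4a1, which antigen receptor signals induce, was called in no table (0.24 to 0.70).

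Of 17 lymphocyte homing genes, 14 were detected, and 3 rose and 3 fell in each GSNAP table (median log2 fold change -0.01 and -0.03). S1pr5, a sphingosine 1-phosphate receptor gene of NK cells, fell in all 6 tables (from 285 to 51 counts in Illumina GSNAP, log2 fold change -2.29, SE 0.35). It averaged 33.6 counts per library there, where Nkg7, Gzma and Gzmb averaged 2.7, 3.5 and 3.4. Which cells supplied the S1pr5 counts was not tested. S1pr1, the related receptor for lymphocyte egress, which endothelium makes in quantity, fell in all 6 by less (-0.47, SE 0.17). Selplg, the P-selectin ligand gene of most leukocytes, rose in all 6 (from 84 to 178 counts in Illumina GSNAP, 1.25, SE 0.29). Itgal, an integrin chain gene of lymphocytes and other leukocytes, was called in no table.

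**Figure D5:**
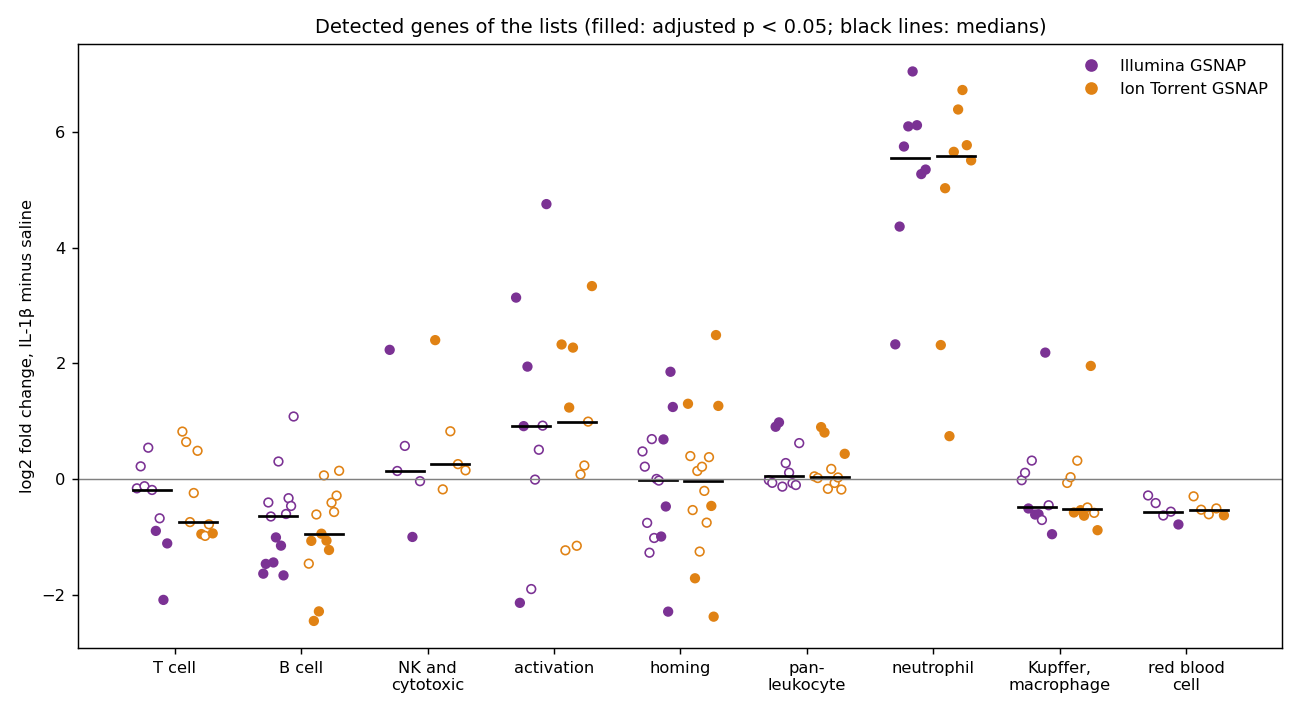
edgeR log2 fold change, IL-1β minus saline (y axis), of the detected genes of 9 lists (x axis) in Illumina GSNAP (purple) and Ion Torrent GSNAP (orange), filled where the adjusted p was below 0.05, with a black line at the median. The B cell list has 6 filled points below 0 and none above it on each platform, and the neutrophil list has all its 8 detected genes above 0.

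Markers of other cell types moved with the treatment, and their part in the members' counts was not tested. All 8 detected neutrophil markers of 10 listed rose in every table, for example S100a9 with a log2 fold change of 5.35 in Illumina GSNAP, and the list summed to 52.8 to 115 CPM per treated mouse and 2.66 to 5.98 per untreated mouse there. Of 10 pan-leukocyte genes, 2 rose in Illumina GSNAP and 3 in Ion Torrent GSNAP, none fell, and Lcp1 and Laptm5 were called in no table. Their sum ran from 148 to 186 CPM in treated and from 150 to 218 in untreated mice of Illumina GSNAP, so these ranges overlapped. Of 10 Kupffer cell and macrophage markers, 1 rose (Marco) and 4 fell in each GSNAP table, among them Clec4f (-0.61) and Cd5l (-0.51). Of 5 red blood cell markers 1 fell in each GSNAP table, with Hbb-b1 at -0.56 and Alas2 at -0.28 called in none, and the list summed to 135 to 218 CPM per treated mouse and 214 to 295 per untreated mouse of Illumina GSNAP. Of 8 dendritic cell markers 2 rose in Illumina GSNAP and 1 in Ion Torrent GSNAP (Irf8 by 0.66 and 0.57, and Zbtb46 called in none). Of 6 endothelial cell markers 2 rose in each, and 2 fell in Illumina GSNAP and 3 in Ion Torrent GSNAP, with Kdr at -1.63 and Stab2 at -0.34, which did not pass, in the first. The hepatocyte identity of the tissue was plain from Alb, the highest in counts of the list, and of 6 hepatocyte markers 1 rose (Fgb by 2.08) and 3 fell in Illumina GSNAP and 4 in Ion Torrent GSNAP (Alb by -0.53 in the first).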

How the data were processed

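The deposited values are count values per gene, which the authors made per table: reads were aligned to mm9 with GSNAP, STAR 2.5.1b or STAR followed by Bowtie2 2.2.9, assigned to Ensembl gene models with PORT, and re-sampled to the smallest library after rRNA and mitochondrial reads were removed. Counts before re-sampling were not used here. Whether an Illumina count is a read or a read pair is not stated in the tables. All 60 columns were used.

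Each table was fitted with edgeR 4.0.16 (TMM, quasi-likelihood, treatment as the single term, R 4.3.3), with Benjamini-Hochberg adjustment over 15582 genes and a threshold of 0.05, and the rank-sum test of the study's methods was run beside it. SE is the absolute log2 fold change divided by the square root of F. Intervals of ratios of summed counts are exact binomial at the 95% level and cover counting error only. The ratios and the exact permutation tests scale counts to library totals, not by TMM. Exact permutation tests, two-sided, ran over 5 and 5 mice. The platform-by-treatment term was fitted per aligner on 20 libraries, blocked on the mouse, since both libraries of a mouse came from the same RNA. As a check of this pairing, the deviations of the 2 libraries of a mouse from their treatment means were correlated across genes (0.199 to 0.728). Only genes averaging at least 20 counts on both platforms entered that check. Alternatives were DESeq2 1.42.0, limma-voom (limma 3.58.1), other scalings and filters, and refits without each mouse. Scripts were tested on simulated data. Fold changes on the TMM scale are relative to most genes: with total counts in place of TMM the median of all genes moved to between -0.114 and -0.0923 on the log2 scale, and the share of genes called lower against higher in Illumina GSNAP became 29.0% and 18.4%, where TMM gave 23.9% and 23.7%.

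The members and lists were chosen with earlier results of these data known. Besides the members, the genes named were those of the 5 lymphocyte lists called in both GSNAP tables in the same direction and with 10 or more counts per library on average, up to 16 by size of change, and the 2 further genes of each list with the highest counts. Others are said to be named after their values were seen, and some genes that the rule picks are not reported here. A search for genes varying between mice as a member does was planned for members averaging 20 or more counts in both GSNAP tables, which no member reached.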

Additional observations from a re-analysis of the deposited data

Results flagged for a closer look

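Over 9 members, 6 tables and 2 groups, 108 groups of 5 mice were screened for a mouse whose distance to the nearest other exceeded 0.71 of the group's range (Dixon's test). Chance marks about 1 in 20 groups of normally distributed values, and 9 were marked here. That rate need not hold for small, tied counts. The 3 tables of a platform also share their reads, so the 9 cannot be set against it. With counts this low a single count can decide the mark. In the Illumina tables, ILB_9582 had 10 Cd4 counts with GSNAP, where the other treated mice had 3 to 5, the untreated mouse UNT_9574 had 9 Gzma counts with STAR + Bowtie2, and the treated mouse ILB_9583 had 0 Ms4a1 counts with STAR and with STAR + Bowtie2, where the other treated mice had 2 each. In Ion Torrent GSNAP, the treated mouse ILB_9582 had 6 Cd3e counts and 8 Gzma counts, and the untreated mouse UNT_9574 had 18 Cd79a counts. In Ion Torrent STAR + Bowtie2, the treated mouse ILB_9577 had 5 Cd8a counts and the untreated mouse UNT_9580 had 6 Ms4a1 counts. ILB_9582 was marked in 3 of the 9 groups, on both platforms.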

How the results depend on the processing

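No value that passed its test changed sign under any alternative, and 49 of 661 refits of members that had not passed did. The Cd4 and Cd79a calls of the Illumina tables stood with edgeR, DESeq2 and limma-voom under every alternative that tested the gene within a table. For edgeR calls, requiring a mean count of at least 10 left 1 member called in Illumina GSNAP, Illumina STAR + Bowtie2 and Ion Torrent STAR, by leaving Cd79a or Gzma out of the fit, and left no member in Illumina STAR, so no value is given there. In Ion Torrent STAR, DESeq2, limma-voom, total counts without TMM and no filter each called 1 member in place of 2 (limma-voom Gzma, the others Cd4). Summing the 2 libraries of a mouse, chosen after seeing the data, called 1 with GSNAP, where Illumina alone had 2 and Ion Torrent alone 1, and 2 with STAR and with STAR + Bowtie2. With the rank test, no filter on low counts left 1 call in Illumina STAR + Bowtie2 and 0 in Ion Torrent STAR and STAR + Bowtie2, and in Ion Torrent GSNAP exact p-values and TMM-scaled CPM each gave 1 in place of 0. Without 1 mouse, edgeR called 2 members in every Illumina refit, 0 to 1 in Ion Torrent GSNAP, 0 to 2 in Ion Torrent STAR and 1 in Ion Torrent STAR + Bowtie2, and the rank test called 0 to 2 in Illumina GSNAP and STAR, 0 to 1 in Illumina STAR + Bowtie2 and 0 in the Ion Torrent tables. In 55 of these 60 rank refits the test called 0 of all genes, so those zeros say nothing about the members, and the 5 Illumina refits with any calls gave 1 or 2. Apart from those filters and smaller groups, the cause was not tested.

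Without the replicate block the platform-by-treatment term called 0 members with each aligner, as with it, and also without any 1 mouse. DESeq2 called 0 members with each aligner as well. With GSNAP, however, DESeq2 gave an adjusted p to only 12553 genes and, of the members, to Cd4 alone. That 0 therefore says nothing about the other members. The search for genes that vary as a member does was not run with STAR, since no member had the counts it needs. Depth limits these values: members other than Cd4 had mean counts of 1.2 to 10.1 per library.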
